A study of Mus musculus with 15 samples.

Results

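Serpina12 and 7 other serpin genes, 8 of the 21 with a probe of their own, were measured often enough to be tested on arrays that set brains of O377 mutant mice against wild-type brains. Serpins are a family of proteins that share one fold and, for the most part, block serine proteases by offering a reactive loop as bait and trapping the protease that cuts it. Some members have lost this activity and act as hormone carriers, chaperones or growth factors. Serpina12, also called vaspin, was described as an adipokine of visceral fat that improves glucose tolerance in obese rodents. It inhibits kallikrein 7 and binds the chaperone Hspa5 at the cell surface. In the brain the family is known for neuroserpin (Serpini1), which restrains tissue plasminogen activator at synapses, and for Serpina3n, which mouse astrocytes make when they become reactive.

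The serpin genes were followed on 15 two-colour arrays of mouse brain RNA. One channel held total RNA of 5 numbered brains of homozygous O377 mutants, a line with an altered allele of the lens crystallin gene Crybb2, and the other held 1 pool of 4 wild-type brains. Mutant RNA carried Cy5 on 7 arrays (numbers 1, 2, 5, 6, 9, 10 and 13) and Cy3 on 8 arrays (3, 4, 7, 8, 11, 12, 14 and 15). Strain, age and sex are not given in the sources used here. The numbers 1 to 15 only name arrays, and the labels do not say which brain lay on which array or whether mutant RNA was mixed.

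Members were probes with a single gene symbol that begins with Serpin, kept where 4 or more arrays with the mutant in Cy5, and as many with it in Cy3, gave a value. Of 21 such genes on the array, with 1 probe each, 8 were kept: Serpina12, Serpina5, Serpina4-ps1, Serpina3n, Serpina6, Serpinc1, Serpinf1 and Serping1. That is 38.1% of the serpin probes, against 40.7% of all probes with 1 symbol, and the whole series had 4369 genes with a tested probe. Serpina12 leads because it was chosen by its dye-switching component, defined next, so its values there are a description without a test. The others were selected on the presence of values alone.

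The deposited values are log ratios of the 2 channels, taken as log2. The sources do not say which channel is on top, the mutant's or that of one dye. For this reason 2 quantities were estimated per probe: a shared component, the mean of the means of both orientations, and a dye-switching component, which is the mean with the mutant in Cy5 minus the mean with the mutant in Cy3, divided by 2. If values run Cy5 over Cy3, the dye-switching component is the difference between mutant and wild type, with positive meaning higher in the mutant, and the shared component is the dye effect. If values run mutant over wild type, the roles change places. Neither reading was settled, so no serpin is called higher or lower in mutant brains here. In whole-brain RNA, a change in the number of cells of a type and a change in RNA per cell cannot be told apart.

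The values per array covered 7843 to 10515 of 20205 probes, and 8058 probes were tested. Array medians lay between -0.0062 and 0.016. Interquartile ranges were widest on array 10 (0.892) and array 9 (0.731) and lay between 0.386 and 0.578 on the others. The Crybb2 probe, whose position with respect to the mutation is unknown here, ran from -0.54 to 0.43 over the 15 arrays, and its dye-switching component was -0.01 (95% confidence interval -0.17 to 0.15). Of the markers listed for brain cells, 6 of 12 neuron probes and 5 of 9 astrocyte probes were tested, while for adipose tissue 0 of 6 probes were tested and 3 had no value on any array. The choroid plexus list also had 0 tested probes, of 4. Lists for tissues outside the brain had tested probes too, 3 of 5 for skin, 3 of 5 for skeletal muscle and 3 of 7 for liver and plasma, so the counts do not tell brain from other tissue. Across the 12 marker lists 1 of 30 tested probes passed an adjusted p of 0.05 in the dye-switching component, against 0.645% of all tested probes. It was the probe of the neuronal surface gene Thy1, at -0.53 (limma adjusted p = 0.0276). The neuron list as a whole had a median of 0.016, and its part in the serpin values was not tested. The table holds ratios and no levels, and allows no other check of the tissue.

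Serpina12 (NCBI gene 68054) lies on chromosome 12 in a cluster of serpin genes. Its closest neighbour with a tested protein-coding probe is Serpina5, the inhibitor of activated protein C. The 250 bases before the RefSeq start of these neighbours are shown because the array gave them unlike values. They come from the GRCm38.p6 promoter table, Serpina12 on the minus strand at chr12:104044444-104044693 and Serpina5 on the plus strand at chr12:104100863-104101112. The Serpina5 gene is annotated from 104099313 to 104106138, so its window lies inside the gene, before an internal start. Capitals mark the motifs found.
Serpina12: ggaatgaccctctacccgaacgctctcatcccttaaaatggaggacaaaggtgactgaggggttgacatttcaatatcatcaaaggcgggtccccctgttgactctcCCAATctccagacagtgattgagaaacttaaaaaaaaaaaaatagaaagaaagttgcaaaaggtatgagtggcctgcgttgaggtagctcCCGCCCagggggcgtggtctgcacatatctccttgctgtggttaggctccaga
Serpina5: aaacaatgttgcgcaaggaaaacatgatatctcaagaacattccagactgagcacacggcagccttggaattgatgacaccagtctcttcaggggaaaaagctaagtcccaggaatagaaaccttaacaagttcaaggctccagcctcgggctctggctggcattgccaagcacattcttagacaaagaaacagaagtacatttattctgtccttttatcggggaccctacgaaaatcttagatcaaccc

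A search on both strands took in 5 short motifs. The Serpina12 window held CCAAT once, beginning 143 bases before the start, and GGGCGG once on the opposite strand, which reads as CCGCCC in the printed one, beginning 53 bases before the start. None of the 5 was found in the Serpina5 window. Among 32851 windows of the same length, 33.9% held CCAAT and 32.7% held GGGCGG. The TATA box TATAAA was present in 12.4% of the windows. The palindrome CACGTG, the E-box, was present in 6.02% of them. The fifth motif, TGACGTG, was present in 1.65%, and it can share bases with CACGTG. The GC content was 48.4% in the Serpina12 window and 44.8% in the Serpina5 window, against a median of 52.4%.

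On the arrays the Serpina12 probe changed sign with the dyes. With the mutant in Cy5 its log2 ratios were 1.04, 1.73, 1.72, 1.34, -0.0065 and 1.23 on arrays 1, 2, 5, 6, 9 and 10, and array 13 had no value. With the mutant in Cy3 they were -0.93, -0.75, -0.92, -0.66, -1.58, -1.32, -1.24 and -2.10 on arrays 3, 4, 7, 8, 11, 12, 14 and 15. Every value with the mutant in Cy3 was below every value with the mutant in Cy5, so the orientations did not overlap. Array 9 was the 1 of 14 arrays that did not lie clearly on the side of its orientation, standing near 0.

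The orientation means of Serpina12 were almost mirror images, 1.18 ± 0.64 with the mutant in Cy5 (SD, n = 6 arrays) and -1.19 ± 0.48 with the mutant in Cy3 (SD, n = 8 arrays). The dye-switching component was 1.18 ± 0.14 (SE), with a 95% confidence interval from 0.89 to 1.47, which is 2.27-fold. Among the 8058 tested probes it ranked 5 by size. The shared component, which did not enter the choice of the gene, was -0.0057 ± 0.14 (SE), with an interval from -0.30 to 0.29 (limma adjusted p = 0.993). Without array 9 the dye-switching component was 1.30.

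Most probes that differed by dye orientation did so on array 9 too. Of the 52 probes past the threshold in the dye-switching component, all had a value on array 9, and 48 of them lay on their own side there. Over the 15 arrays, between 44 of 50 probes (array 1) and 51 of 51 probes (array 4) lay on their own side. These probes were called with the same arrays, so the counts describe them and test nothing.

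**Figure D1:**
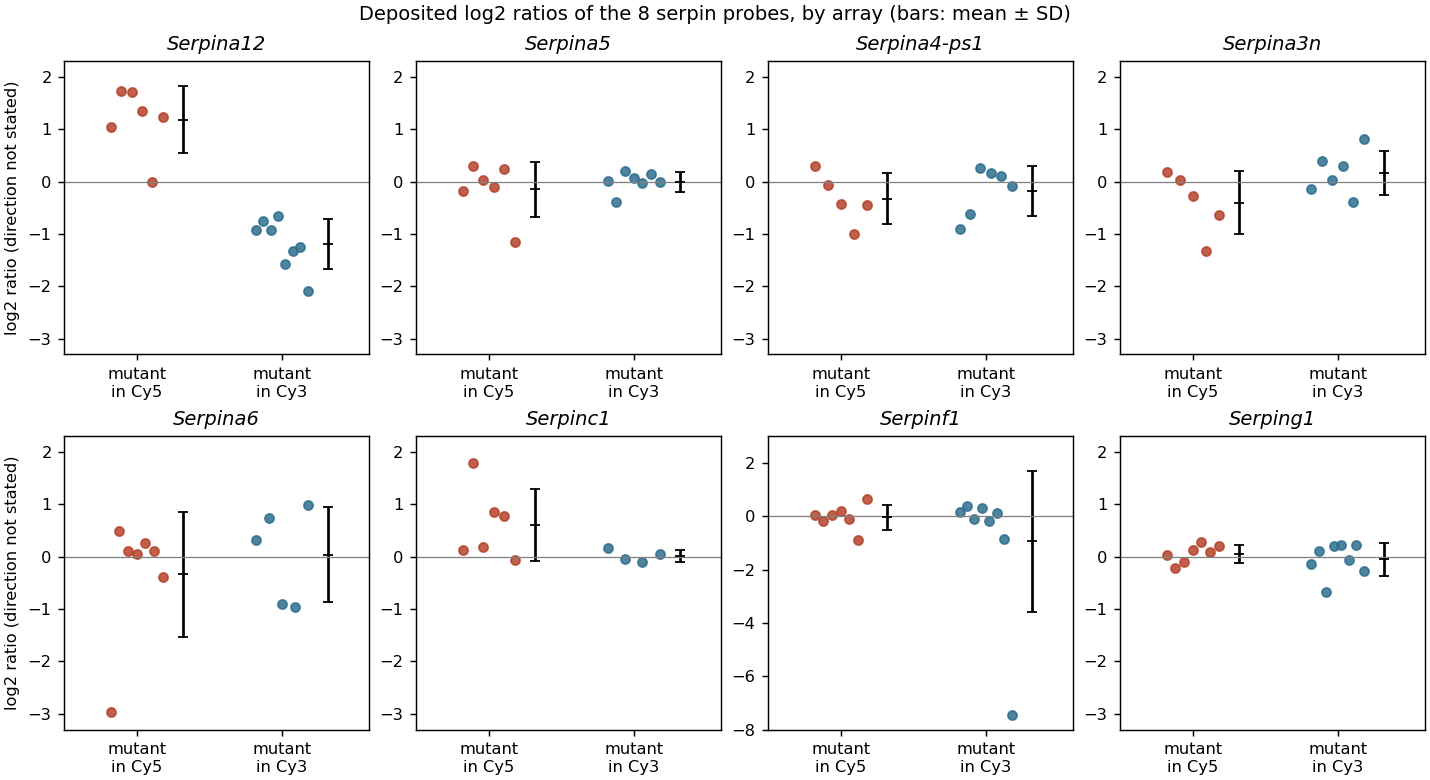
Deposited log2 ratios (vertical axes) of the 8 serpin probes, 1 point per array, with the mutant in Cy5 on the left (red) and in Cy3 on the right (blue) of each panel, and bars for the mean ± SD. The Serpinf1 panel has a wider axis than the rest. Serpina12 values with the mutant in Cy5 reach 1.73 and those with the mutant in Cy3 reach -2.10, without overlap, while the orientations of the other 7 probes overlap. Serpinc1 reaches 1.79 with the mutant in Cy5, and single low points stand out for Serpina6 (-2.97) and Serpinf1 (-7.44).

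In the other 7 serpins the values of both orientations overlapped. Their intervals were not all narrow: the dye-switching interval of Serpinf1, from -0.51 to 1.41, included the 1.18 of Serpina12. Of the 8 serpin probes, 1, Serpina12, passed an adjusted p of 0.05 in the dye-switching component, on the positive side. Over all probes 0.645% passed on either side and 0.335% on the positive side, but Serpina12 was chosen on this contrast, so nothing is read from that count. None of the other 7 reached an unadjusted p of 0.05 in this component, where 9.57% of all probes did. Serpina12 was also the 1 serpin of 8 whose orientations did not overlap, as in 0.906% of all probes. The choice of Serpina12 favours this too, so nothing is read from it. In the shared component limma called 0 of 8 serpins and 0 of 8058 probes at the adjusted threshold, a share of 0%. At an unadjusted p of 0.05 these counts were 0 of 8 serpins and 9.49% of all probes. At such shares 7 or 8 probes hold few calls or none, so these counts of 0 say nothing particular about serpins. Array by array the 15 values draw on 5 mutant brains and 1 wild-type pool, so a p-value here reflects array-to-array spread, overstates the evidence about animals, and leaves out the spread among wild-type mice. Probe sequences were not given, so cross-hybridization among the closely related Serpina genes was not tested.

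The median dye-switching component of the 8 serpins was -0.0081, against 0.0073 over all tested probes. Leaving Serpina12 aside, the median size of the component was 0.184 over 7 serpins, against 0.0795 over all probes. The shared component gave a similar pair, 0.150 against 0.0839, and the median SE was 0.142 over these serpins, against 0.0897 over all probes. In the shared component the serpin median was -0.097, against -0.0049 over all probes.

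Serpina5 lay near 0 on most arrays. Its 6 values with the mutant in Cy5 ran from -1.15 through a median of -0.036 to 0.29, and its 7 values with the mutant in Cy3 ran from -0.40 through 0.0047 to 0.19. The lowest value stood alone on array 13, and the orientations overlapped. The dye-switching component was -0.07 ± 0.10 (SE), with an interval from -0.29 to 0.15 (adjusted p = 0.865). Without array 13 it was 0.031.

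Serpina4-ps1 is a transcribed pseudogene that lies between Serpina12 and Serpina5. Arrays 2, 5, 6, 9 and 10, with the mutant in Cy5, gave 0.30, -0.060, -0.43, -0.995 and -0.45. The 6 values with the mutant in Cy3 ran from -0.91 through a median of 0.018 to 0.26. Values of both orientations overlapped, with the lowest on arrays 9 and 4. Serpina4-ps1 had a dye-switching component of -0.075 ± 0.13 (SE, adjusted p = 0.894), and the shared component was -0.25 ± 0.13 (adjusted p = 0.556).

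Serpina3n encodes a secreted inhibitor of chymotrypsin-like proteases. Arrays 5, 6, 9, 10 and 13, with the mutant in Cy5, gave 0.18, 0.031, -0.27, -1.33 and -0.64. The 6 values with the mutant in Cy3 ran from -0.39 through a median of 0.16 to 0.81. Its orientation means therefore lay the other way round from those of Serpina12, though the values overlapped. For Serpina3n the dye-switching component was -0.28 ± 0.14 (SE), with an interval from -0.59 to 0.023 (adjusted p = 0.555). Without array 10, which held the lowest value, it was -0.17. The listed astrocyte markers had 5 tested probes of 3 genes, with a median of -0.04 in this component. They ran from -0.15 for S100b to 0.46 for a Glul probe, whose gene stood at -0.012 on another probe. None passed, against 0.645% of all tested probes, and so few probes say nothing particular about astrocytes.

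Serpina6, the corticosteroid-binding globulin, is a hormone carrier without known inhibitory activity. Its 7 values with the mutant in Cy5 ran from -2.97 (array 1) through a median of 0.10 to 0.50. Arrays 7, 11, 12, 14 and 15, with the mutant in Cy3, gave 0.31, 0.73, -0.89, -0.96 and 0.98. Both orientations held values on either side of 0. Serpina6 had a dye-switching component of -0.18 ± 0.28 (SE, adjusted p = 0.869), and without array 1 it was 0.036.

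Serpinc1 is antithrombin, the main plasma inhibitor of thrombin. It was the member closest to the limit of arrays, with 4 values in the smaller orientation. Its 6 values with the mutant in Cy5 ran from -0.072 through a median of 0.48 to 1.79. The 4 values with the mutant in Cy3 were 0.16, -0.044, -0.11 and 0.058 on arrays 7, 8, 12 and 15. Of the 6 values with the mutant in Cy5, 5 were above 0. Those on array 13 (-0.072) and array 1 (0.12) lay within the range of the other orientation. Serpinc1 had a dye-switching component of 0.30 ± 0.16 (SE, adjusted p = 0.60) and a shared component of 0.31 ± 0.16 (adjusted p = 0.551).

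Serpinf1 encodes pigment epithelium-derived factor, a neurotrophic and antiangiogenic serpin that inhibits no known protease. Its 7 values with the mutant in Cy5 ran from -0.90 through a median of 0.031 to 0.63. The 8 values with the mutant in Cy3 ran from -7.44 (array 15) through a median of 0.016 to 0.38. The dye-switching component of 0.45 ± 0.45 (SE, adjusted p = 0.798) and the shared component of -0.50 ± 0.45 (adjusted p = 0.727) both rested on array 15. Without that array they were -0.011 and -0.033.

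Serping1 is the inhibitor of the complement protease C1 and of plasma kallikrein. It had a value on every array and the smallest standard error of the 8 members. Arrays with the mutant in Cy5 ran from -0.21 through a median of 0.081 to 0.29, and those with it in Cy3 from -0.68 through 0.028 to 0.22. For Serping1 the dye-switching component was 0.054 ± 0.071 (SE), with an interval from -0.096 to 0.20 (adjusted p = 0.843).

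**Figure D2:**
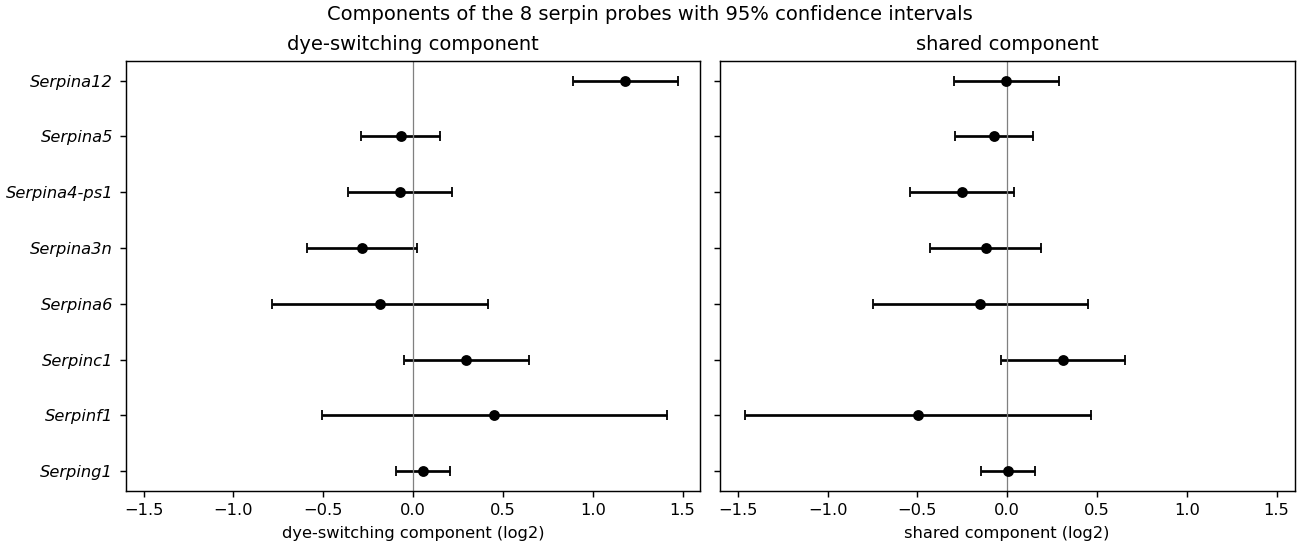
Dye-switching components (left) and shared components (right) of the 8 serpin probes on the log2 scale, as points with 95% confidence intervals. Serpina12 stands at 1.18 on the left and at -0.0057 on the right, and the intervals of the other 7 include 0 in both panels.

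The remaining 13 serpin genes on the array were not tested. Of these, 5 had no value on any array: Serpina1e, Serpinb5, Serpinb8, Serpinb12 and Serpind1. The other 8 had a value on 1 or 2 arrays in all, far from the limit, so no serpin lay close below it. Neuroserpin, Serpini1, had a single value of 5.27 on array 6, and the collagen chaperone Serpinh1 had a single value of -0.14 on array 15. Serpinf2, the inhibitor of plasmin, had -3.29 on array 13 with the mutant in Cy5 and -0.82 on array 7 with the mutant in Cy3. Serpina10 had 1.70 and -0.64 and Serpina1b had -3.05 and -0.52, each on 2 arrays with the mutant in Cy3. Another 5 probes carried a serpin symbol among several symbols, of which 2 were tested, and none of them is named here.

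Serpina12 lies in a stretch of chromosome 12 with 28 serpin genes and pseudogenes within 1 Mb, by the gene order of GRCm38.p6. In that stretch 9 genes had a tested probe with 1 symbol, 5 serpins and 4 others, with 11 probes in all. Probes with several symbols were left out of this count. Beside Serpina12 itself, 1 of these probes passed the threshold in the dye-switching component, against 0.645% of all tested probes. It was that of Ifi27, an interferon-induced gene of the mitochondrial and nuclear membranes.

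Ifi27 ran opposite to Serpina12. Its 7 values with the mutant in Cy5 lay between -1.02 and -0.49, and its 8 values with Cy3 on the mutant lay between 0.40 and 1.07. Its orientations did not overlap, as with Serpina12. The dye-switching component of Ifi27 was -0.78 ± 0.065 (SE, adjusted p = 2.7e-06), and its correlation with Serpina12 over 14 arrays was -0.911. Of the tested genes, Serpina6 lies between Ifi27 and Serpina12 in chromosomal order. On the far side of Serpina12 lie Serpina4-ps1, Serpina5 and Serpina3n, and none of these serpins passed. Beyond the serpins the homeobox gene Gsc stood at 0.0075 ± 0.070 and the small nucleolar RNA host gene Snhg10 at -0.35 ± 0.20. The deubiquitinase gene Otub2 had 3 tested probes, at -0.096, 0.10 and 0.27, none past the threshold.

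**Figure D3:**
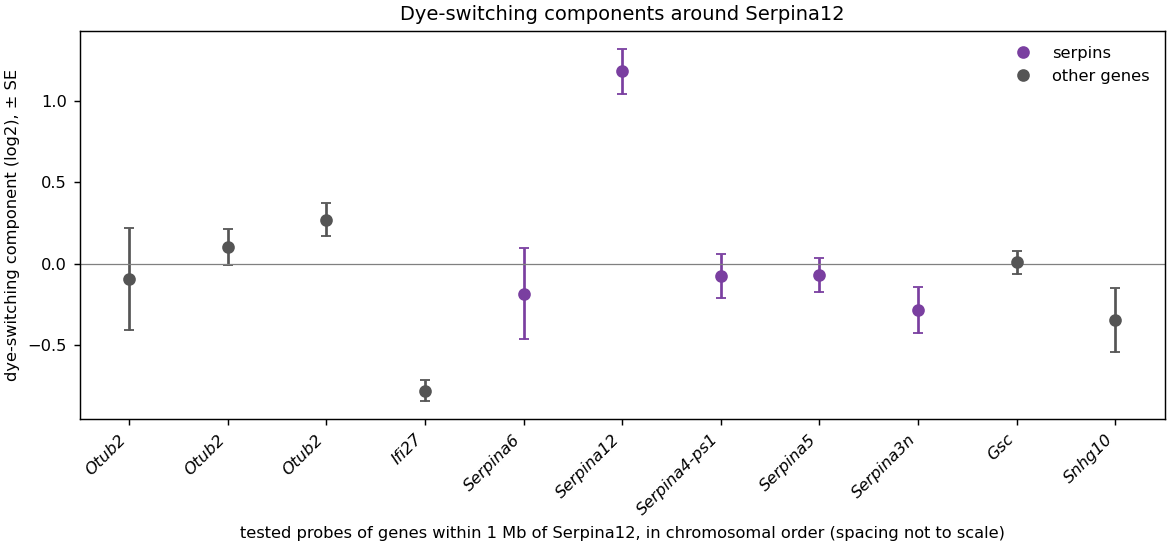
Dye-switching components (log2, points with SE bars) of the 11 tested probes with 1 symbol of genes within 1 Mb of Serpina12. They are in the order of the genes along the chromosome, with spacing not to scale. Serpins are purple and other genes grey. Serpina12 at 1.18 and Ifi27 at -0.78 stand apart, and the others lie between -0.35 and 0.27.

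Likeness to Serpina12 was measured by Pearson's r of the deposited values over arrays on which both probes had a value. There were 6525 probes with at least 12 such arrays, and their median r was -0.007. The genes named below were ranked among the 3950 of these probes that had 1 symbol. Since Serpina12 splits by dye orientation, r is high or low mostly for probes that split too, and all points share arrays and pools, so r is a description. The 6 genes with the highest r were Mrpl48, a mitochondrial ribosomal protein gene (0.908), the calpain gene Capn3 (0.885), the dynein light chain gene Dynlrb1 (0.842), the chromatin reader gene Yeats4 (0.841), the nuclear receptor gene Nr4a1 (0.839) and the transcription factor gene Xbp1 (0.838). The 4 lowest were the nucleotidase gene Nt5c2 (-0.930), Ifi27 (-0.911), Smim7 (-0.890) and Babam2 (-0.887).

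Likeness did not follow the size of the component among these genes. Capn3 had a dye-switching component of 1.72 and Mrpl48 one of 0.51, and Dynlrb1 reached its r with 0.25, which did not pass (adjusted p = 0.180). Mrpl48 had its lowest value of the 7 arrays with the mutant in Cy5 on array 9 (0.22), where Serpina12 was lowest too. After each orientation's mean was taken off, r with Serpina12 was 0.655 for Dynlrb1, 0.456 for Mrpl48, 0.115 for Yeats4, 0.092 for Nr4a1, 0.008 for Capn3 and -0.380 for Xbp1. Without array 9 it was 0.175 for Mrpl48 and 0.034 for Xbp1. By that second measure the highest genes were Cd2bp2 (0.860), Niban2 (0.836) and Osbpl1a (0.829), whose dye-switching components of 0.0024, 0.12 and -0.023 did not pass. With 1 array left out, their r by this measure fell as low as 0.806, 0.66 and 0.767. They were picked as the highest of 3950 probes, so these r are a description too.

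Of the serpins, 3 shared at least 12 arrays with Serpina12. Their r was 0.396 for Serpinf1, 0.186 for Serpina5 and 0.065 for Serping1, and each changed sign with 1 array left out. The r of Serpinf1 was -0.082 without array 15, that of Serpina5 -0.023 without array 5 and that of Serping1 -0.084 without array 7 and -0.067 without array 15.

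**Figure D4:**
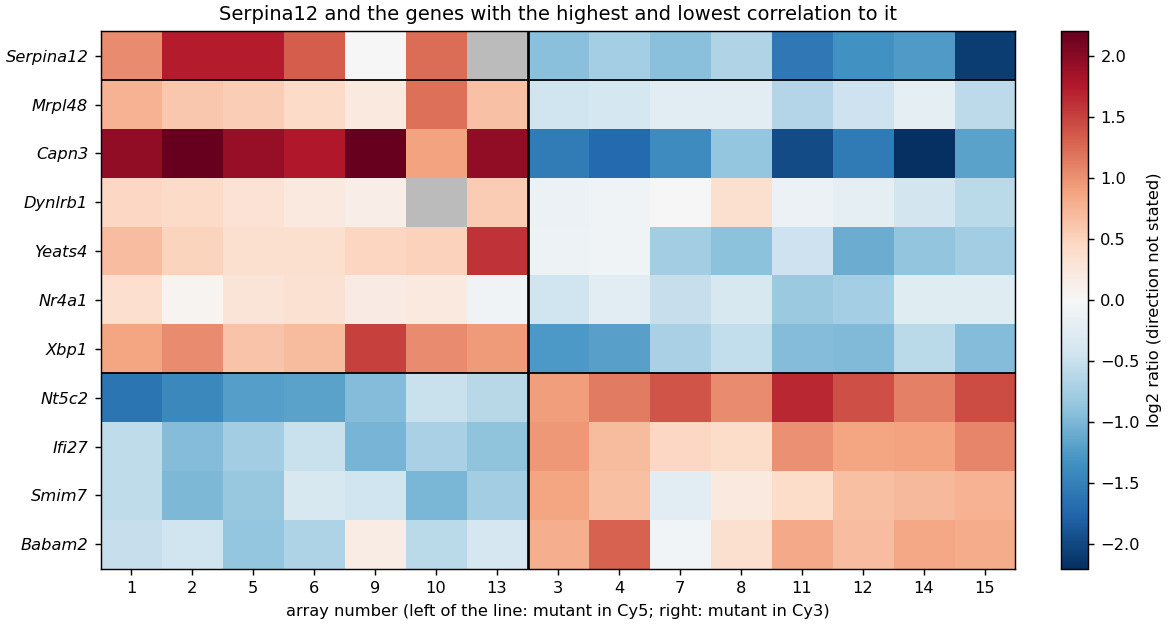
Log2 ratios by array (colour, scale ending at 2.2 in size; grey, no value) of Serpina12 in the top row, the 6 genes with the highest r to it and the 4 with the lowest. Arrays with the mutant in Cy5 are left of the vertical line and those with the mutant in Cy3 right of it. Serpina12 is near 0 on array 9, where Capn3 and Xbp1 are well above 0.

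Few genes around the serpins were measured. At the overall shares of 0.645% in the dye-switching and 0% in the shared component, lists of 5 to 18 tested probes hold few calls or none, so the counts of 0 that follow say nothing particular about these genes. Of 34 genes in a list of proteases that serpins inhibit, 8 were tested with 9 probes, and 0 passed in either component. Their median dye-switching component was -0.073. The largest statistic was that of F2, prothrombin, which Serpinc1 inhibits, at 0.39 ± 0.19 (SE, adjusted p = 0.555). The tissue kallikrein gene Klk1 stood at -0.14 and -0.073 on its 2 probes, and Prss12, which encodes the synaptic protease neurotrypsin, at -0.12. In the shared component Plau, the urokinase gene, stood at -0.26 (adjusted p = 0.421). No probe was named Klk7, the protease inhibited by vaspin, so its value is not analysed here.

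Of 14 listed receptors and cofactors of serpins 5 were tested and 0 passed, and the median dye-switching component was -0.0044. Hspa5, which binds vaspin, stood at -0.092 ± 0.089 (SE, adjusted p = 0.790), with a mean of 0.096 with Cy5 on the mutant, against 0.28 with Cy3 on the mutant. The voltage-dependent anion channel gene Vdac1 stood at -0.11 and Lrp1, the endocytic receptor of serpin complexes, at 0.12.

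Protease inhibitors outside the serpin family, such as cystatins and Timp genes, were tested with 18 probes of 15 genes, and 0 passed. Their median dye-switching component was -0.0097. The cystatin gene Cst6 stood at -0.28 (adjusted p = 0.532), the proteoglycan gene Spock2 at 0.13 and Itih2, of the inter-alpha-trypsin inhibitor, at 0.23.

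Of 20 adipokines and adipokine receptors 5 genes were tested and 0 passed, with a median of 0.068. The adiponectin receptor gene Adipor2 stood at 0.15 ± 0.067 (SE, adjusted p = 0.506), Tnf at 0.083 and Adipor1 at -0.44 ± 0.33. Insulin signalling had 13 tested probes of 10 genes, 0 past the threshold and a median of 0.022. Pik3r1, a regulatory subunit of phosphoinositide 3-kinase, stood at 0.16 (adjusted p = 0.448) on its first probe and 0.022 on its second, the glucose transporter gene Slc2a4 at 0.29, and Pik3ca at 0.21 and -0.020 on its 2 probes. Collagens and the enzymes that fold them, clients and partners of Serpinh1, had 7 tested probes with 0 past the threshold and a median of 0.053, led by Col6a1 at 0.20 (adjusted p = 0.443). Col1a2 stood at 0.12 and 0.056 on its 2 probes, and Plod1, a lysyl hydroxylase, at -0.066.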

How the data were processed

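The data are 15 two-colour arrays of mouse brain RNA. The authors' deposited table holds log ratios, taken as log2, with 1 column for each array. Its log base, direction, background correction, normalization and spot filter are not given in the sources used here. A missing value may be a dim or a rejected spot, and intensities were not analysed. Folds assume base 2.

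Probes were named from the platform annotation, with symbols updated through gene identifiers to GRCm38.p6. Of 20205 probes, 11723 had 1 symbol, 806 several and 7676 none. Promoter sequences are RefSeq's. The build behind the probes is not given.

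Probes with values on at least 4 arrays of each orientation (8058) were fitted with limma 3.58.1 under R 4.3.3, using dye orientation as the covariate, eBayes moderation and Benjamini-Hochberg adjustment over all of them, at a threshold of 0.05. The fit was tested on simulated data. The number of arrays limits the precision, with a median SE of 0.0897. Alternatives were other centring, scaling, filters, weights, variance models and estimators, limited values, averaged probes, no dye term, and arrays left out. Figures were drawn with matplotlib 3.10.9.

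Named genes were all tested serpins, genes within 1 Mb of Serpina12, 6 highest and 4 lowest by r with it, 3 by r of deviations, and per list all members past the threshold and up to 3 with the largest statistic. Plau, Thy1, Crybb2, second probes of Klk1, Pik3r1, Pik3ca and Col1a2, and the untested serpins were added after their values were seen. Members and lists were chosen with earlier results of these data known.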

Additional observations from a re-analysis of the deposited data

Results flagged for a closer look

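Within each dye orientation, 16 sets of serpin values were checked for an array far from the others, and 4 sets held one. Chance gives about 1 in 20 sets. Serpinf1 was at -7.44 on array 15 (mutant in Cy3), where the next lowest of 8 values was -0.85. Serpina6 was at -2.97 on array 1 (mutant in Cy5), whereas the lowest of the remaining values was -0.38. Serpina5 held such a value in both orientations, -1.15 on array 13 with the mutant in Cy5 (next -0.18) and -0.40 on array 4 with the mutant in Cy3 (next -0.035). The near-zero value of Serpina12 on array 9 did not meet this criterion.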

How the results depend on the processing

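The count of serpins past the threshold was 1, Serpina12, in the dye-switching component and 0 in the shared component in all 26 alternatives. However, 4 serpins were left with at least 6 values per orientation and 6 without arrays 9 and 10. Serpina12 was chosen on the dye-switching component, and the alternatives refit the same values, so its passing each time adds no support. The Serpina12 dye-switching component lay between 1.12 and 1.30 with single arrays left out and between 1.18 and 1.32 in the other alternatives, and its shared component between -0.17 and 0.14 in all. Robust regression called 204 probes of the whole table in the dye-switching component, against 52, and 107 in the shared component, against 0. The cause was not tested. Components of 6 of the other serpins changed sign in some alternative, none of them past the threshold. Those of Serpinc1 kept theirs in the 21 alternatives that tested it. It was not tested with at least 6 values per orientation or without array 7, 8, 12 or 15. Those arrays held all its values with the mutant in Cy3, so its sign was not checked against leaving them out. With array weights the shared component of Serpina3n was 0.0090, that of Serping1 -0.033, and the dye-switching component of Serpina4-ps1 0.021. Robust regression gave shared components of 0.0089 for Serpina5 and 0.021 for Serpina6, and a dye-switching component of -0.0034 for Serpinf1. The shared component of Serping1 was -0.020 with scaled arrays and -0.021 without arrays 9 and 10. With single arrays left out, dye-switching components ran from -0.15 to 0.0089 for Serpina4-ps1 (highest without array 9), from -0.11 to 0.031 for Serpina5 (array 13), from -0.31 to 0.036 for Serpina6 (array 1) and from -0.011 to 0.55 for Serpinf1 (lowest without array 15). Shared components ran from -0.12 to 0.027 for Serpina5, from -0.27 to 0.069 for Serpina6 and from -0.015 to 0.050 for Serping1. Chosen after seeing the data, leaving out single arrays moved r with Serpina12 between -0.082 and 0.439 for Serpinf1, -0.023 and 0.402 for Serpina5 and -0.084 and 0.175 for Serping1. The number of arrays, and on the dim side an unstated spot filter, limit what could be measured.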
